A study of Rattus norvegicus with 8 samples.

Results

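The 43 genes described here copy the nuclear genome or supply the deoxynucleotides for it. They load and activate the replicative helicase, make up the polymerases, clamp and ligase of the fork, feed the dNTP pool, drive entry into S phase, and pass DNA methylation on to the new strand. They were found by name: every non-control probe of the arrays whose gene name in the scanner files is one of the 43 was taken, which gave 58 probes of 42 genes, and no probe carried the name of Gins1. All 58 probes passed the filter on dim probes (well above background in 3 or more of the 4 siRNA or 4 NC arrays), so the 42 genes are all among the 10636 genes tested.

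The cells were BRL-3A, an established line derived from rat liver, on Agilent 1-colour whole rat genome arrays (Cy3, total RNA, 1 sample per array). The siRNA group, 4 arrays, received an siRNA that targets lnc19959.2, a long noncoding RNA. The NC group, 4 arrays, carries a transfection labelled only NC, which the labels do not spell out. Both groups received lipofectamine 2000 and were harvested after 48 h, and the study asks about lnc19959.2 in triglyceride metabolism. The level of lnc19959.2 was not analysed here. The labels do not say whether the 4 arrays of a group came from separate cultures, so p-values measure only the spread between arrays, which may be technical.

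A level below is the log2 processed intensity of a gene's brightest probe minus the array's 75th percentile of that intensity, so 0 is a spot at that percentile. Levels are compared between groups for the same probe only, and the values of a group's arrays stand in the order of replicates 1 to 4. The 75th percentile was 289 to 323 intensity units on siRNA arrays and 246 to 261 on NC arrays, 55.4% to 59.1% of spots on siRNA arrays and 57.3% to 64.1% on NC arrays were well above background, and no spot was saturated. Pairs of arrays had an r over probes of 0.986 to 0.993 if in the same group and of 0.946 to 0.962 if not. The siRNA arrays shared 1 slide and scan and the NC arrays a different one, so a slide or scan effect and the group cannot be told apart. Precision is limited by having 4 arrays in each group. Of 12 hepatocyte markers only Cyp2e1, Hnf4a and Fgb were measured, and Alb, Ttr, Serpina1, Tat, Ahsg and Cyp3a2 were well above background on 0 of the 8 arrays. Of 11 fibroblast and stellate markers 7 were measured: Col1a1, Col1a2, Col3a1, Dcn, Des, Pdgfrb and Vim, each well above background on all 8 arrays. Of the others, Lum and Lrat were so on 0 arrays and Thy1 on 2 NC arrays only.

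Replication starts at origins, where the origin recognition complex with Cdc6 and Cdt1 loads the ring of Mcm2 to Mcm7 as an inactive helicase in G1. Kinases then turn that ring into the active helicase with Cdc45 and the GINS complex, and polymerase alpha-primase, delta and epsilon copy the strands behind it. E2F transcription factors, released from the retinoblastoma proteins as cyclin E-dependent kinase becomes active, are known regulators of many of these genes. The genes are on in dividing cells, such as those of a growing line, and low in resting liver.

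Of the 42 genes measured, 40 were higher in siRNA cells than in NC cells, 0 were lower, and 2 (Cdc7 and Rfc4) did not pass the test (limma, adjusted p under 0.05 over 24853 probes). Over all genes tested 36.2% were called higher and 28.9% lower, and over all probes 29.7% and 31.9%. The median of the log2 fold changes, siRNA minus NC, was 0.82 over the members and 0.05 over all genes tested, and 93.2% of all genes lay below the members' median. A rise of 2-fold or more was called for 12 members, against 4.23% of all genes, and a fall of 2-fold or more for 0 members, against 8.77% of all genes. All 4 siRNA arrays lay above all 4 NC arrays for 38 members, with the others being Cdc7, Rfc4, Mcm5 and Mcm7, against 35.0% of all genes, and no member had the siRNA arrays below the NC arrays, against 27.6% of all genes. With another background correction, normexp on the mean and local background signals, 23 members were called higher, against 11.1% of all genes under that setting. Normexp without the 0 to 10 spots per array dimmer than their local background called 40 members higher, against 35.2% of all genes. RNA came from whole cultures, so a larger share of cells in S phase and more of these transcripts per cell cannot be told apart.

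**Figure D1:**
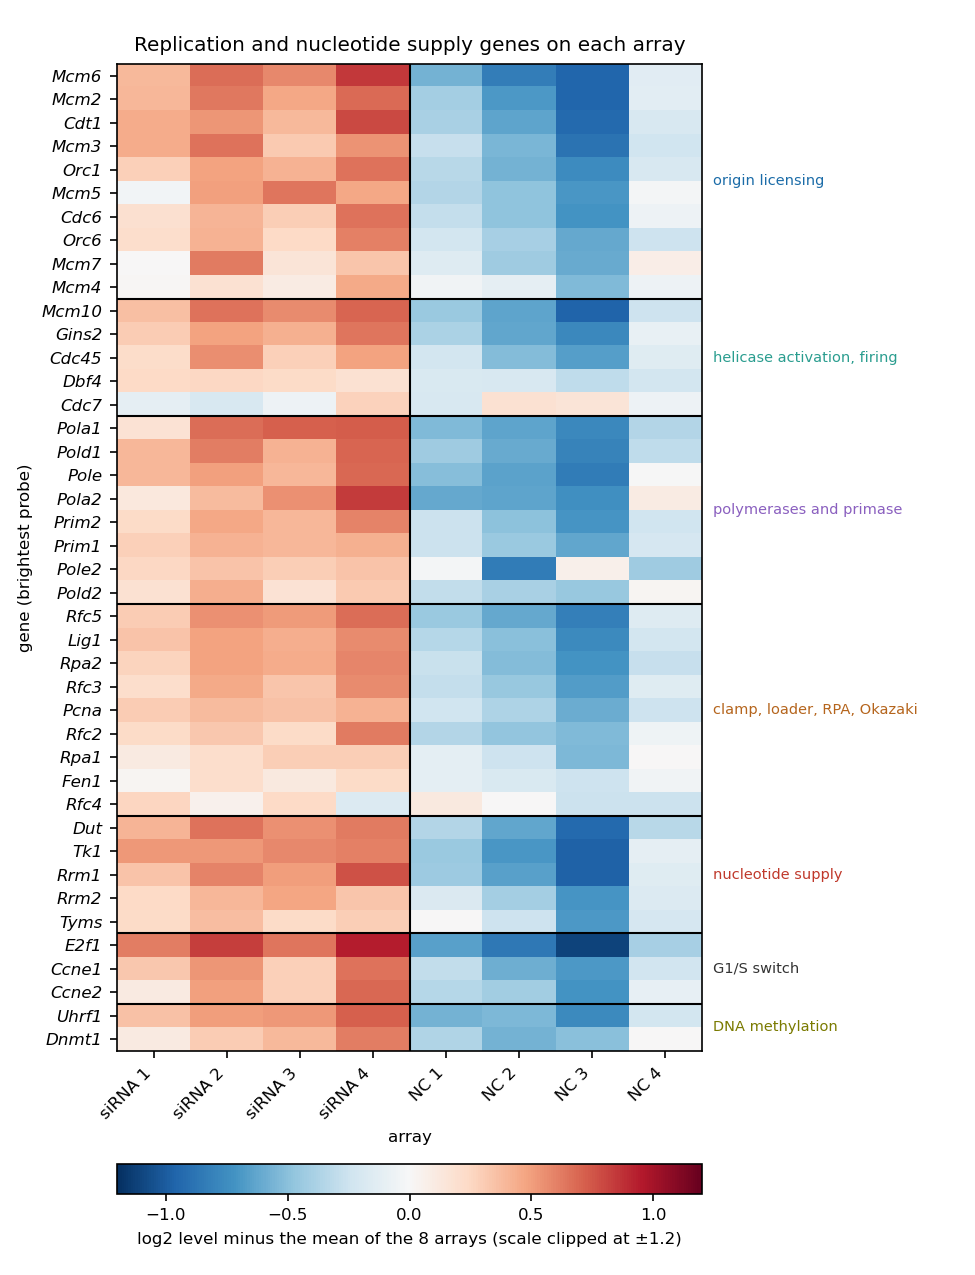
Log2 level of each of the 42 genes on each of the 8 arrays, minus the gene's mean over the arrays, with genes in rows by role and arrays in columns. Nearly every row is above its mean on the siRNA arrays and below it on the NC arrays, with the rows of Cdc7 and Rfc4 mixed, and NC 3 is the lowest NC array in 39 rows.

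Because most members moved together, the promoters were searched for letters known from shared regulators. RefSeq promoters (GRCr8, 250 bases before to 50 after the start of each gene, 300 in all) were held for 37 of the 43 genes, Gins1 among them, and Ccne2, Cdc6, E2f1, Mcm4, Orc1 and Rrm2 were not matched. Forms of the E2F consensus were searched on both strands, where words can overlap each other. They were the word TTCCCGC, the word TTCGCGC, the word TTGCCGC and the word TTGGCGC. At least 1 stood in 23 of the 37 member promoters (62.2%), against 17.5% of 8774 promoters of genes tested and 10.0% of all 27457 promoters, and 2 or more stood in 12 (32.4%), against 2.17% and 1.08%. Of the 44 words in member promoters, 31 began within 50 bases of the start, and positions were not counted in other promoters. Promoters of the mitosis genes held such a word in 4 of 22 (18.2%), and those of the common reference genes in 6 of 10 (60.0%), with 2 or more in 0. CCAAT, the letters NF-Y binds, searched on both strands and able to overlap the reverse complement of TTGGCGC, stood in 21 member promoters (56.8%, against 38.5% of tested and 37.7% of all promoters, and 72.7% of the 22 mitosis promoters). GGGCGG, the letters of Sp1 sites, also on both strands, stood in 25 (67.6%, against 62.0% of tested and 34.9% of all promoters).

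Not every member with several words rose most: Mcm7 had 4 words at a log2 fold change of 0.55, and Mcm5 had 3 at 0.78. The promoters below were chosen with the fold changes known: Mcm6 with 5 words, Pola1 with 4, Cdt1 with 3 and Mcm2 with 2 overlapping ones are among the members that rose most, Cdc7 and Rfc4 are the members not called, and Dut rose without any such word. Each runs 5′ to 3′ on the strand of its gene, with the E2F letters of either strand in capitals, from RefSeq GRCr8 at chr13:42404303-42404602, minus strand (Mcm6), chrX:62342306-62342605, minus strand (Pola1), chr19:67528999-67529298, plus strand (Cdt1), chr4:122918045-122918344, minus strand (Mcm2), chr14:2969607-2969906, minus strand (Cdc7), chr11:91254023-91254322, plus strand (Rfc4) and chr3:132952180-132952479, plus strand (Dut).
Mcm6: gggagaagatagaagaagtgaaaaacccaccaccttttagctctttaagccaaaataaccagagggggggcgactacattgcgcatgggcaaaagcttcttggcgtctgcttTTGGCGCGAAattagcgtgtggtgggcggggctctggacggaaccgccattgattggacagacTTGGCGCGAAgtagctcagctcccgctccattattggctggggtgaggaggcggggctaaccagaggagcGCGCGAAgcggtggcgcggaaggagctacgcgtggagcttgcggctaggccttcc
Pola1: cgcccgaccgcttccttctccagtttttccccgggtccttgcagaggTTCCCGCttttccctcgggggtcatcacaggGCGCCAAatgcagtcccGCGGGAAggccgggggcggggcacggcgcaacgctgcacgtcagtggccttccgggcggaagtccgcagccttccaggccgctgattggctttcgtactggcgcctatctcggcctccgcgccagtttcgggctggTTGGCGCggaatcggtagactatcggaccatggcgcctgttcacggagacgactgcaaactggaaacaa
Cdt1: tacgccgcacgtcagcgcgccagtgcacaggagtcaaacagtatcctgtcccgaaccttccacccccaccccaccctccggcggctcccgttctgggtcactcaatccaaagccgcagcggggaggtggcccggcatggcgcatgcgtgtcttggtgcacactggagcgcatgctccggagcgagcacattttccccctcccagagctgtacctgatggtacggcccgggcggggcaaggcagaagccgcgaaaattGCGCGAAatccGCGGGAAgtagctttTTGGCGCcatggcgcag
Mcm2: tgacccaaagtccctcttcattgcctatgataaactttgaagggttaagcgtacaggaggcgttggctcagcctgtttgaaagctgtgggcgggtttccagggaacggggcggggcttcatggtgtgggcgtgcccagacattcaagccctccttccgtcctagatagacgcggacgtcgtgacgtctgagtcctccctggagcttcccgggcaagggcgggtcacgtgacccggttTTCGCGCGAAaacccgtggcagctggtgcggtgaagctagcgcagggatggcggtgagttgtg
Cdc7: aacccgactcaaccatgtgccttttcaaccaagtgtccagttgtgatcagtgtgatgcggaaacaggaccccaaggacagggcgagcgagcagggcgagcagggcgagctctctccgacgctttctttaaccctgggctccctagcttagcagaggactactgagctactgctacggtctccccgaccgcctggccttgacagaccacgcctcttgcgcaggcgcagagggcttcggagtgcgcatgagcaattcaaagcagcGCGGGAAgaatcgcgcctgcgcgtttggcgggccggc
Rfc4: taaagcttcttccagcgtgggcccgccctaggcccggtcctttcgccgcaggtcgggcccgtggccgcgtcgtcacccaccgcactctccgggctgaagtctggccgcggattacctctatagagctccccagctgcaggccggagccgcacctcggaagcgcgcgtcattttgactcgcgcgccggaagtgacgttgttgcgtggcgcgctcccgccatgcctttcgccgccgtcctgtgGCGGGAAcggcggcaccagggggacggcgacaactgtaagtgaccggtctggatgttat
Dut: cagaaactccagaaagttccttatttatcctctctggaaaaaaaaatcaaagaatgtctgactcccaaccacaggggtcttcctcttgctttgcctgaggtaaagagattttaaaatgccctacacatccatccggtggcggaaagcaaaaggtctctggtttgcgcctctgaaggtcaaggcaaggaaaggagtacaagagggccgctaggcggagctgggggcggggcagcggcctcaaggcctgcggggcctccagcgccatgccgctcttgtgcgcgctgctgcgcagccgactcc
Members with and without such a word had overlapping fold changes. The 22 measured members with a word had a median log2 fold change of 0.84 (range -0.04 to 1.24), with 20 called higher, and the 14 without had a median of 0.87 (range 0.45 to 1.12), with 14 called higher. The single word in the Cdc7 promoter and the single word in the Rfc4 promoter begin at positions 13 and -9 counted from the start. A match describes these letters in this window and not a bound site.

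Every measured gene of origin licensing rose, all 10 of them, with a median log2 fold change of 0.85 (range 0.37 to 1.24). Mcm6, a subunit of the helicase ring, rose most in this group, followed by Mcm2, another ring subunit, and Cdt1, the loading factor that brings the ring to the origin. Mcm6 had log2 levels of 1.15, 1.43, 1.33 and 1.61 in siRNA cells, against 0.19, -0.07, -0.19 and 0.63 in NC cells. Every siRNA array was above every NC array, and the fold change was 1.24 ± 0.18 (SE) on the log2 scale (2.37-fold, adjusted p = 0.000686, limma). Mcm2 had log2 levels of 0.77, 1.004, 0.84 and 1.05 in siRNA cells, against -0.04, -0.32, -0.58 and 0.24 in NC cells, a log2 fold change of 1.09 ± 0.17 (SE; adjusted p = 0.000925, limma). Cdt1 had log2 levels of -0.31, -0.22, -0.36 and 0.04 in siRNA cells, against -1.14, -1.38, -1.68 and -0.94 in NC cells, a log2 fold change of 1.07 ± 0.16 (SE; adjusted p = 0.000822, limma). In all 3 genes NC replicate 3 was the lowest and NC replicate 4 the highest of the NC arrays, and the groups did not overlap.

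The 6 ring subunits, which act as 1 hexamer, were all called but over a span of log2 fold changes from 0.37 to 1.24, and differences between subunits were not tested. Mcm3 rose by 0.98 ± 0.15 (SE; adjusted p = 0.000859, limma), Mcm5 by 0.78 ± 0.18 (0.00696), Mcm7 by 0.55 ± 0.18 (0.0296) and Mcm4 by 0.37 ± 0.14 (0.0438). Mcm4 and Mcm7 had the largest adjusted p of the called members. Without any 1 of siRNA replicates 2, 3 or 4 or NC replicates 2, 3 or 4 the call of Mcm4 was lost (adjusted p from 0.0514 to 0.0940), and that of Mcm7 was lost in 4 of these (adjusted p from 0.0613 to 0.0749). Of the origin recognition complex, which marks the origin, Orc1 rose by 0.92 ± 0.13 (adjusted p = 0.000608, limma) and Orc6 by 0.74 ± 0.12 (0.000984), and Cdc6, the ATPase that joins it, rose by 0.77 ± 0.16 (0.00333). With normexp the group's calls numbered 5, without Cdt1, Cdc6, Mcm4, Mcm5 and Mcm7.

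In helicase activation and origin firing 4 of the 5 measured genes rose and Cdc7 did not pass the test, with a median log2 fold change of 0.78. Mcm10, which helps the activated helicase open DNA, had log2 levels of 0.42, 0.72, 0.63 and 0.76 in siRNA cells, against -0.39, -0.57, -0.90 and -0.18 in NC cells, a log2 fold change of 1.14 ± 0.15 (SE; adjusted p = 0.000419, limma). Gins2, a subunit of the GINS complex in the moving helicase, had log2 levels of -0.67, -0.50, -0.55 and -0.34 in siRNA cells, against -1.36, -1.60, -1.75 and -1.07 in NC cells, a log2 fold change of 0.93 ± 0.15 (SE; adjusted p = 0.00102, limma). The groups were apart in both genes. Cdc45, the third part of the moving helicase, had log2 levels of 3.83, 4.17, 3.90 and 4.10 in siRNA cells, against 3.39, 3.09, 2.95 and 3.47 in NC cells, a log2 fold change of 0.78 ± 0.13 (SE; adjusted p = 0.0015, limma).

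Of the kinase that fires origins, Dbf4 was called and Cdc7 was not. Its catalytic subunit Cdc7 had log2 levels of -3.08, -3.16, -3.02 and -2.69 in siRNA cells, against -3.16, -2.79, -2.81 and -3.03 in NC cells, which overlap throughout, and its log2 fold change was -0.04 ± 0.13 (SE; adjusted p = 0.789, limma). Its activating subunit Dbf4 was steady within groups, with levels from 0.11 to 0.18 in siRNA cells and from -0.38 to -0.26 in NC cells, and rose by 0.45 ± 0.05 (SE; adjusted p = 0.000118, limma). The difference between the subunits was not tested. Scaled to the arrays' spike-in probes in place of the 75th percentile, Cdc7 rose by 0.49 (adjusted p = 0.00945, limma), a scaling that lifted the median of all probes by 0.53. With normexp the calls of Gins2 and Dbf4 were lost.

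All 8 genes of the replicative polymerases and primase rose, with a median log2 fold change of 0.90 (range 0.56 to 1.15). Pola1, the catalytic subunit of polymerase alpha, which starts each new strand, had log2 levels of -1.63, -1.13, -1.08 and -1.08 in siRNA cells, against -2.34, -2.44, -2.58 and -2.16 in NC cells, a log2 fold change of 1.15 ± 0.15 (SE; adjusted p = 0.000314, limma). The siRNA array of replicate 1 stood below the other siRNA arrays but above every NC array. Pold1, the catalytic subunit of the lagging strand polymerase delta, had log2 levels of 2.39, 2.61, 2.41 and 2.69 in siRNA cells, against 1.57, 1.39, 1.19 and 1.69 in NC cells, a log2 fold change of 1.06 ± 0.12 (SE; adjusted p = 0.000194, limma). Pole, the catalytic subunit of the leading strand polymerase epsilon, had log2 levels of -1.10, -1.01, -1.10 and -0.81 in siRNA cells, against -2.01, -2.14, -2.34 and -1.50 in NC cells, a log2 fold change of 0.99 ± 0.17 (SE; adjusted p = 0.00149, limma). The 3 catalytic subunits were 2.21-fold, 2.09-fold and 1.99-fold higher in this order, with groups that did not overlap.

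The partner subunits rose as well. Pola2, the regulatory subunit of polymerase alpha, rose by 0.95 ± 0.22 (SE; adjusted p = 0.00612, limma), and the primase subunits Prim1 and Prim2, which make the RNA primers, rose by 0.76 ± 0.10 (0.000335) and 0.84 ± 0.12 (0.000642). Pole2 and Pold2, accessory subunits of polymerases epsilon and delta, rose by 0.61 ± 0.19 (0.0215) and 0.56 ± 0.11 (0.00361), with the Pole2 call lost without NC replicate 4 (adjusted p = 0.0530). With normexp only Pold1 and Prim1 of the 8 stayed called.

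Of the 9 genes of the clamp, the clamp loader, the single-strand binding protein and Okazaki fragment maturation, 8 rose, with a median log2 fold change of 0.72. Rfc5, a subunit of the loader that places the sliding clamp on DNA, had log2 levels of -0.19, 0.05, 0.02 and 0.18 in siRNA cells, against -0.94, -1.11, -1.31 and -0.65 in NC cells, a log2 fold change of 1.02 ± 0.15 (SE; adjusted p = 0.000567, limma). Lig1, the ligase that seals Okazaki fragments, had log2 levels of 3.73, 3.88, 3.83 and 3.96 in siRNA cells, against 3.05, 2.89, 2.64 and 3.18 in NC cells, a log2 fold change of 0.91 ± 0.12 (SE; adjusted p = 0.000328, limma). Rpa2, a subunit of the protein that coats single-stranded DNA, had log2 levels of 2.83, 3.05, 3.01 and 3.15 in siRNA cells, against 2.30, 2.04, 1.85 and 2.29 in NC cells, a log2 fold change of 0.89 ± 0.12 (SE; adjusted p = 0.000401, limma). These 3 had no overlap between groups, and siRNA replicate 1 was the lowest siRNA array in each.

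Rfc4, another loader subunit, was the exception, with log2 levels of 1.51, 1.30, 1.49 and 1.09 in siRNA cells, against 1.37, 1.25, 0.99 and 0.996 in NC cells. Its highest value was that of siRNA replicate 1 and its groups overlapped, with a log2 fold change of 0.20 ± 0.13 (SE; adjusted p = 0.205, limma). Scaling to the array median called it higher at 0.50 (adjusted p = 0.0103, limma), and scaling to the spike-in probes called it higher at 0.73 (adjusted p = 0.00158). These scalings lifted the median of all probes by 0.30 and 0.53 and called 60% and 72.6% of all genes higher. The small loader subunits Rfc2 and Rfc3 rose by 0.71 ± 0.13 (SE; adjusted p = 0.00204, limma) and 0.78 ± 0.13 (0.00107), and the difference of Rfc4 from them was not tested. Pcna, the sliding clamp itself, rose by 0.72 ± 0.08 (0.000207) and Rpa1, the largest subunit of the single-strand binding protein, by 0.45 ± 0.12 (0.0100).

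Fen1, the flap nuclease of Okazaki fragment maturation, rose least of the called members, and its groups were close. Its brightest probe had log2 levels of 5.98, 6.16, 6.07 and 6.18 in siRNA cells, against 5.83, 5.77, 5.70 and 5.90 in NC cells, a log2 fold change of 0.29 ± 0.07 (SE; adjusted p = 0.00607, limma). Quantile normalization and cyclic loess both gave 0.17 with the call lost (adjusted p = 0.0990 and 0.105). With normexp the Fen1 call was lost at a larger fold change, 0.62 (adjusted p = 0.123, limma). The Rpa1 call was lost at 0.22 (adjusted p = 0.319).

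All 5 nucleotide supply genes rose, with a median log2 fold change of 1.10 (range 0.57 to 1.12), the highest of the 7 role groups, whose differences were not tested, and all 5 stayed called with normexp. Dut, which removes dUTP and so keeps uracil out of DNA, had log2 levels of 4.59, 4.83, 4.73 and 4.80 in siRNA cells, against 3.83, 3.56, 3.24 and 3.85 in NC cells, a log2 fold change of 1.12 ± 0.14 (SE; adjusted p = 0.000285, limma). Tk1, the thymidine kinase of S phase, had log2 levels of 0.76, 0.76, 0.82 and 0.84 in siRNA cells, against -0.20, -0.46, -0.73 and 0.13 in NC cells, a log2 fold change of 1.11 ± 0.17 (SE; adjusted p = 0.000747, limma). The siRNA levels of Tk1 lay within 0.76 to 0.84 while its NC levels spread from -0.73 to 0.13. The array design places the Tk1 probe on chromosome 3 of rn4 whereas RefSeq places the gene on chromosome 10 of GRCr8, so its identity is uncertain. Rrm1 and Rrm2, the large and small subunits of ribonucleotide reductase, which makes deoxynucleotides, rose by 1.10 ± 0.18 (SE; adjusted p = 0.000991, limma) and 0.73 ± 0.13 (0.00157), and the other Rrm1 probes rose by 0.97 and 0.73, the brightest having no position in the array design. Tyms, the thymidylate synthase, rose by 0.57 ± 0.14 (0.00817).

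The 3 genes of the switch into S phase rose too, and E2f1 had the largest fold change of all 42 members. E2f1, the E2F factor itself, had log2 levels of 3.14, 3.36, 3.18 and 3.47 in siRNA cells, against 1.88, 1.67, 1.42 and 2.13 in NC cells, a log2 fold change of 1.51 ± 0.15 (SE; 2.85-fold, adjusted p = 0.000112, limma). The lowest siRNA array stood 1.01 above the highest NC array on this log2 scale. Ccne1, cyclin E1, the partner of the S phase kinase, had log2 levels of 3.82, 4.03, 3.78 and 4.15 in siRNA cells, against 3.204, 2.92, 2.80 and 3.27 in NC cells, a log2 fold change of 0.90 ± 0.13 (SE; adjusted p = 0.000605, limma), and Ccne2, cyclin E2, rose by 0.79 ± 0.16 (0.00358). Of the maintenance of DNA methylation, Uhrf1, which recognises hemimethylated sites behind the fork, had log2 levels of -2.44, -2.29, -2.27 and -2.07 in siRNA cells, against -3.36, -3.33, -3.56 and -3.01 in NC cells, a log2 fold change of 1.05 ± 0.13 (SE; adjusted p = 0.000241, limma). Dnmt1, the methyltransferase that Uhrf1 brings there, had log2 levels of -0.14, 0.05, 0.14 and 0.37 in siRNA cells, against -0.61, -0.82, -0.76 and -0.24 in NC cells, a log2 fold change of 0.71 ± 0.15 (SE; adjusted p = 0.00413, limma). Both genes had every siRNA array above every NC array, and with normexp the calls of Uhrf1 and Ccne2 were lost. The array design gives the Uhrf1 probe no named chromosome of rn4, and RefSeq places the gene on chromosome 9 of GRCr8. The accession of that probe, like those of the Mcm5 and Rpa1 probes, matched no RefSeq symbol.

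**Figure D2:**
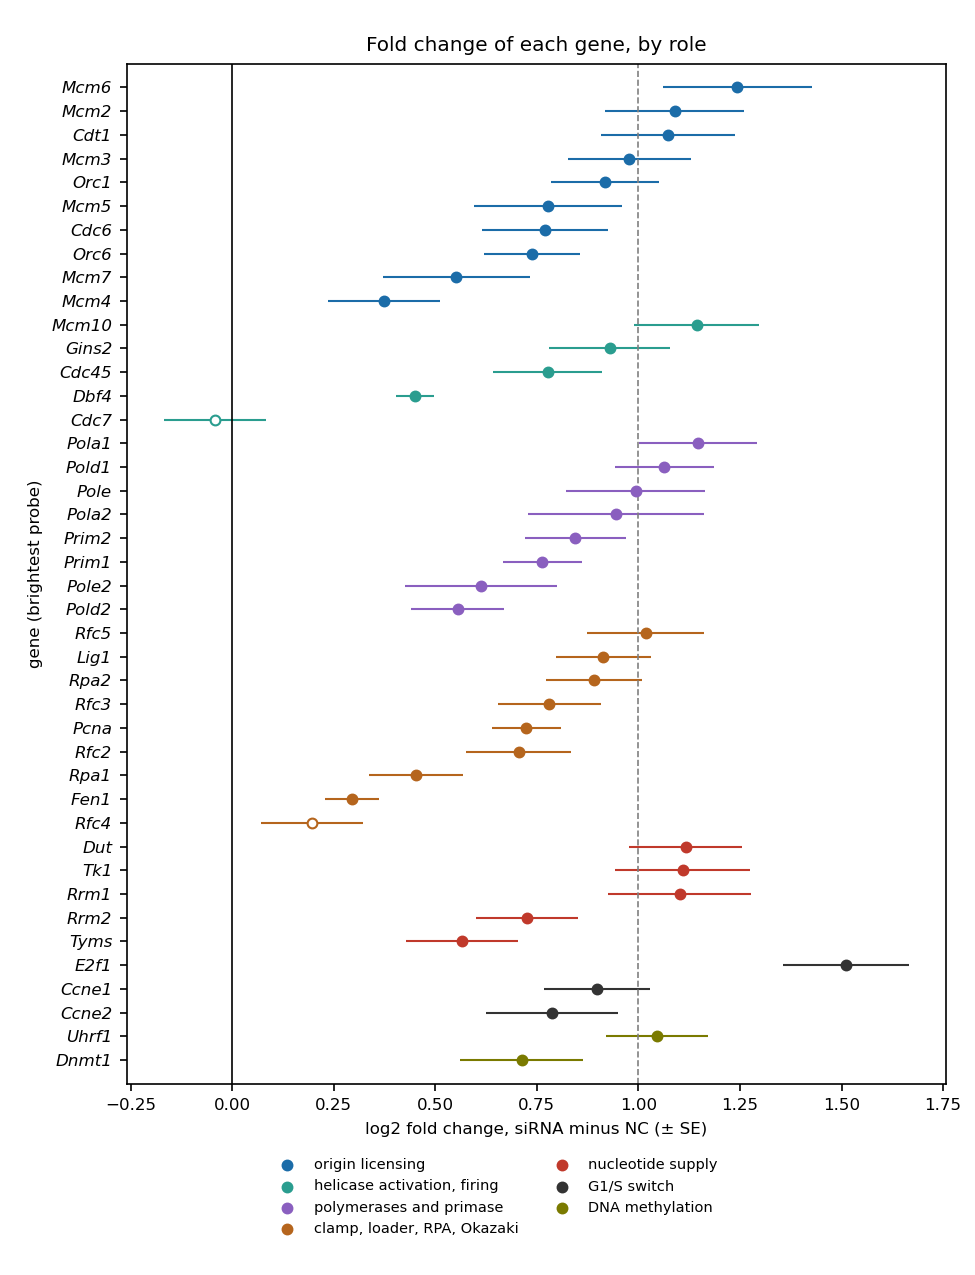
Log2 fold change of each gene (siRNA minus NC, brightest probe) with its standard error from limma (n = 4 arrays per group), coloured by role, filled where called and open where not. The dashed line marks 2-fold. E2f1 lies highest at 1.51, and Rfc4 and Cdc7 are the open points at 0.20 and -0.04.

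The members' levels ordered the arrays within each group in the same way. NC replicate 3 was the lowest NC array in 39 of the 42 genes and NC replicate 4 the highest in 33, where over all genes tested these arrays were so in 27.4% and 24.8%. Among siRNA arrays replicate 1 was the lowest in 32 genes and replicate 4 the highest in 32, against 24.7% and 23.4% of all genes. The mean level over the 42 genes was 0.97, 1.17, 1.10 and 1.27 in siRNA replicates 1 to 4, against 0.41, 0.23, 0.05 and 0.56 in NC replicates 1 to 4, that is 1.13 ± 0.12 and 0.31 ± 0.22 (SD, n = 4 each). The spread was wider among NC arrays in 36 of the 42 genes (85.7%, against 49.2% of all genes), with a median SD of 0.15 among siRNA arrays and 0.25 among NC arrays. Even so, the lowest of the siRNA means, 0.97, was above the highest of the NC means, 0.56. Leaving out any 1 array left the median log2 fold change between 0.74 and 0.91.

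The means of the mitosis genes and of the reference genes put the NC arrays in the same order, with smaller differences between arrays for the reference genes. NC replicate 3 also had the lowest mean of the NC arrays in each list of other pathway genes. The 23 measured mitosis genes averaged 2.13, 2.41, 2.35 and 2.40 in siRNA replicates 1 to 4, against 1.55, 1.40, 1.16 and 1.61 in NC replicates 1 to 4, with siRNA replicate 1 the lowest siRNA array, NC replicate 3 the lowest NC array and NC replicate 4 the highest NC array again. Of these 23, 21 were higher, 0 lower and 2 (Plk1 and Ttk) not called, with a median log2 fold change of 0.93. Ttk, a spindle checkpoint kinase, had log2 levels of 0.40, 3.61, 3.56 and 3.52 in siRNA cells, against 2.68, 2.46, 2.23 and 2.78 in NC cells. Its siRNA replicate 1 lay below all NC arrays and the other siRNA arrays above them. Without siRNA replicate 1 Ttk rose by 1.03 (adjusted p = 0.000738, limma), against 0.24 with it (0.787). Plk1, a mitotic kinase, rose by 0.43 (0.0128) without that array, against 0.24 with it (0.288). The 15 common reference genes averaged 4.68, 4.68, 4.70 and 4.63 in siRNA replicates 1 to 4, against 4.47, 4.44, 4.38 and 4.47 in NC replicates 1 to 4, with 8 higher, 2 lower and a median of 0.21. Markers of other cell types also moved: the mean log2 level over the measured hepatocyte markers (3 of 12) was -2.20 to -1.65 in siRNA cells and -3.89 to -3.25 in NC cells. Of these 3, Cyp2e1 rose by 4.94 and Hnf4a, well above background on 4 siRNA arrays and 1 NC array, was called higher. Fgb was not called at -0.74 (adjusted p = 0.157, limma), but was lower without siRNA replicate 1 (-1.08, 0.0325). Over fibroblast and stellate markers (7 of 11) the mean was 3.73 to 3.87 in siRNA cells and 3.09 to 3.34 in NC cells. Of these 7, 3 were called higher (Col3a1, Dcn and Col1a2), 1 lower (Pdgfrb) and 3 not called, with a median log2 fold change of 0.13. Col1a1, not called on its brightest probe, was higher on its other kept probes, by 0.45 (adjusted p = 0.0121, limma) and 0.66 (3.33e-05). Over endothelial markers (5 of 7) the mean level was -2.68 to -2.57 in siRNA cells and -1.96 to -1.82 in NC cells. Their median log2 fold change had the other sign, 0.79, with 3 called higher (Kdr, Eng and Cdh5) and 2 lower (Vwf and Tek). Leukocyte markers (3 of 8) lay at -1.70 to -0.61 in siRNA cells and -0.44 to 0.13 in NC cells, and cholangiocyte markers (3 of 5) at -1.25 to -0.83 in siRNA cells and -1.29 to -0.98 in NC cells. Of the leukocyte markers 1 was called lower (Cd68) and 2 (Cd14 and Ms4a1) not called, with a median log2 fold change of -0.59. Of the cholangiocyte markers 1 was called higher (Krt7) and 2 lower (Spp1 and Sox9), with a median log2 fold change of -0.45. The Sox9 call was lost without any 1 of siRNA replicates 1 or 4 or NC replicates 1 or 3. Adgre1, Pecam1, Epcam, Lum and Lrat were well above background on 0 arrays. The part of these in the members' rise was not tested.

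**Figure D3:**
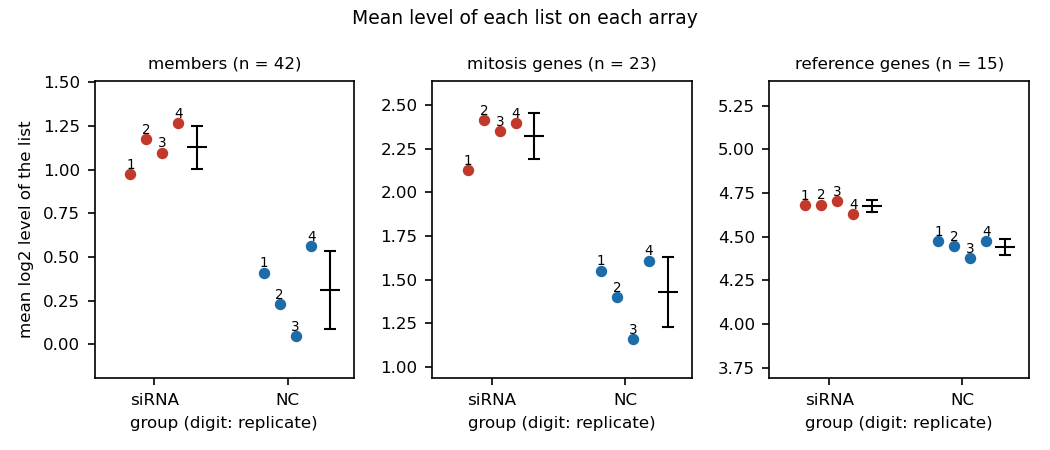
Mean log2 level on each array over the 42 members, the 23 mitosis genes and the 15 reference genes, siRNA left of NC, with the digit giving the replicate and the bar the mean ± SD of the group (n = 4). The members average 1.13 ± 0.12 in siRNA cells and 0.31 ± 0.22 in NC cells, and the 3 panels have the same span of log2 units at different levels.

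Beyond the members, 90 other genes of the same pathway were measured, and 53 of them were higher, 8 lower and 29 not called (limma), with a median log2 fold change of 0.34. The share called higher, against 36.2% of all genes, was largest, of the lists they fall into, in fork and synthesis genes (20 of 28 higher, 2 lower, median 0.59). There Rnaseh2c, a subunit of the enzyme that removes RNA from DNA, rose by 1.05 ± 0.10 (SE; adjusted p = 7.57e-05) and Top2a, which untangles sister strands, by 1.51 ± 0.15 (0.000108), while Top1, the topoisomerase that relaxes DNA ahead of the fork, fell by 0.60 ± 0.07 (0.000157) and Slbp, the histone mRNA binder, fell by 0.43 ± 0.09 (0.00433). With spike-in scaling 81 of the 90 were called higher and 0 lower, against 72.6% and 10.1% of all genes under that setting. Other subunits of the member complexes, singled out after their values were seen, were mixed: Rpa3 rose by 0.74 ± 0.09 and Pole3 by 0.55 ± 0.08, Pold3 by 0.22 ± 0.06 and Gins4 by 0.23 ± 0.08, while Pold4, Pole4 and Gins3 did not pass the test at 0.14 ± 0.07, 0.06 ± 0.09 and 0.41 ± 0.22. The Gins4 call was lost without any 1 of 6 of the 8 arrays (adjusted p from 0.0618 to 0.0970), and Gins3 was called higher without NC replicate 3 (0.59, adjusted p = 0.0268, limma). Rfc1, the large subunit of the clamp loader, had log2 levels of 0.63, 3.41, 3.38 and 3.43 in siRNA cells, against 2.74, 2.68, 2.50 and 2.75 in NC cells, and did not pass the test at 0.05 ± 0.61 (adjusted p = 0.953). Its siRNA replicate 1 lay below all NC arrays and the other siRNA arrays above them, and without that array it rose by 0.74 ± 0.07 (SE; adjusted p = 0.000256, limma).

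Other licensing and firing genes were divided, with 7 of 13 higher, 2 lower and 4 (Gins3, Mcmbp, Orc3 and Orc5) not called. Mcmbp was called higher without siRNA replicate 4 (0.38, adjusted p = 0.0108, limma), and Orc3 lower without siRNA replicate 3 (-0.45, 0.0302). Recql4, a helicase that acts in origin firing, rose by 1.17 ± 0.13 (SE; adjusted p = 0.000151, limma) and Donson, a fork factor, by 0.64 ± 0.09 (0.000522). Orc2 and Orc4, subunits of the complex whose Orc1 and Orc6 rose, fell by 0.40 ± 0.07 (0.00191) and 0.36 ± 0.09 (0.0110). Under median and spike-in scaling, however, fewer genes of the whole pathway were called lower (2 and 0 in place of 8). Over all genes the shares called lower were 15.4% and 10.1% in place of 28.9%. Of the other E2F, Rb and S phase kinase genes 10 of 16 were higher, 1 (E2f3, which fell by 0.30 ± 0.05) lower and 5 (Cdc25a, E2f4, E2f5, E2f6 and Rb1) not called. Rb1 was called higher without NC replicate 1 (0.29, adjusted p = 0.0237, limma). Rbl2, a retinoblastoma relative that represses E2F genes, rose by 0.91 ± 0.07 (adjusted p = 2.66e-05, limma), and Tfdp2, the binding partner of E2F factors, by 1.32 ± 0.13 (8.27e-05).

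Genes of nucleotide synthesis other than the members were mixed. Of 14 other deoxynucleotide and thymidylate genes 7 were higher, 3 lower and 4 (Dck, Mthfd2, Samhd1 and Tymp) not called, with a median log2 fold change of 0.23. Dtymk, the thymidylate kinase, rose by 0.69 ± 0.06 (SE; adjusted p = 5.47e-05, limma), while the mitochondrial thymidine kinase Tk2 fell by 0.51 ± 0.07 (0.000462), the mitochondrial folate enzyme Shmt2 by 0.28 ± 0.04 (0.000890) and its cytosolic counterpart Shmt1 by 0.25 ± 0.08 (0.0261). The Shmt1 call was lost without any 1 of NC replicates 1, 2 or 4 or siRNA replicate 2 (adjusted p from 0.0510 to 0.0656). Samhd1 was called higher without NC replicate 2 (0.29, adjusted p = 0.0395). Of 19 genes of purine and pyrimidine ring synthesis 9 were higher and 0 lower, with a median of 0.24, led by Cmpk1 (0.50 ± 0.05, adjusted p = 0.000145, limma) and Ctps1 (0.51 ± 0.07, 0.000592), which make pyrimidine nucleotides. These lists were set beside the members by count and median only, and the difference between lists was not tested.

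DNA synthesis genes outside the nuclear replication machinery were mixed. Of 10 mitochondrial DNA replication genes 2 (Polg and Tfam) were higher and 5 (Mgme1, Polg2, Polrmt, Tfb2m and Twnk) lower, with a median of -0.06. The Mgme1 call was lost without any 1 of 6 of the 8 arrays (adjusted p from 0.0697 to 0.0978). Of 8 translesion and repair polymerase genes 4 (Mad2l2, Polq, Rev1 and Rev3l) were higher and 2 (Poli and Polk) lower, with a median of 0.19.

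**Figure D4:**
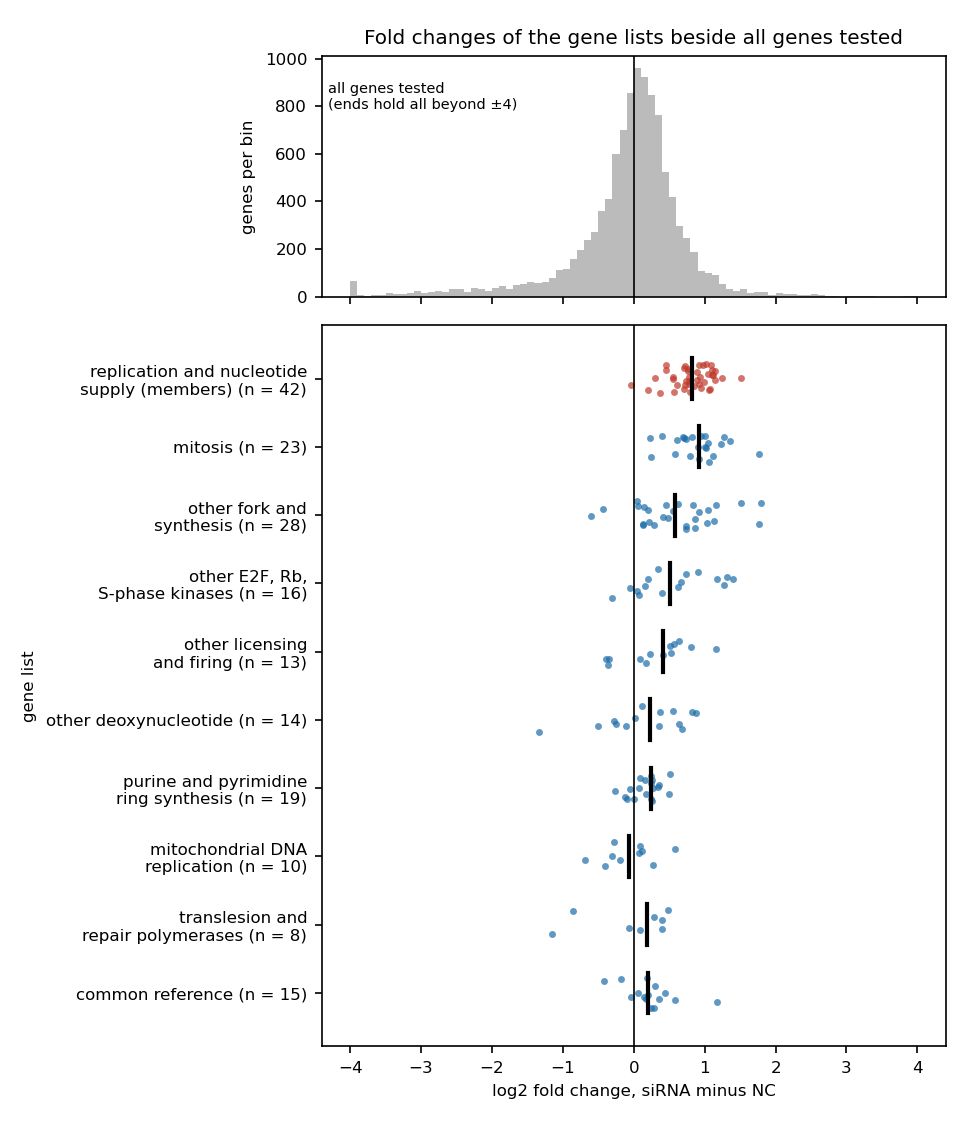
Log2 fold changes (siRNA minus NC) of all genes tested as a histogram above, and below of each gene of the members and the other lists as points, with the median as a bar. The member median is 0.82, that of the mitosis genes 0.93, that of the mitochondrial genes -0.06 and that of all genes tested 0.05.

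More than 1 probe was present for 15 members, which gave 16 pairs of the brightest probe with another probe of the same gene. All 16 pairs were positive for both probes, 14 were called higher with both, and in 2 pairs, of Mcm10 and Fen1, only the brightest probe was called. The other probe's log2 fold change minus the brightest one's ran from -0.79 (Mcm10) to 0.73 (Pola1), with a median size of 0.13. The second Mcm10 probe had log2 levels of -3.15, -3.04, -3.25 and -2.95 in siRNA cells, against -3.53, -3.09, -3.81 and -3.39 in NC cells, a log2 fold change of 0.36 ± 0.15 (SE; adjusted p = 0.0667, limma). It was also the only 1 of the 58 probes not well above background on every array, with 3 of 4 NC arrays. The second Fen1 probe had log2 levels of -1.22, -1.01, -1.09 and -0.92 in siRNA cells, against -1.58, -1.69, -1.75 and -0.91 in NC cells, a log2 fold change of 0.42 ± 0.18 (SE; adjusted p = 0.0797, limma), with NC replicate 4 above every siRNA array. The second Pola1 probe went the other way, with log2 levels of -1.78, -1.46, -1.64 and -1.63 in siRNA cells, against -3.26, -3.42, -3.92 and -3.39 in NC cells, a log2 fold change of 1.87 ± 0.15 (SE; adjusted p = 3.11e-05, limma). E2f1 rose on its second probe by 1.20 ± 0.18 (adjusted p = 0.00073, limma) and Dut by 1.42 ± 0.18 (0.000293).

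The probes on which these statements rest are shown because their place in the transcript differs within a gene, and they run 5′ to 3′ as designed, with the brightest of a pair first. The array design places them on rn4 at chr17:84375391-84375450, plus strand, and chr17:84371988-84372047, plus strand (Mcm10), at chrX:80810007-80810066, minus strand, and chrX:80651404-80651463, minus strand (Pola1), at chr1:212688202-212688261, minus strand, and chr1:212689776-212689835, minus strand (Fen1), and at chr3:109023260-109023319, minus strand (Tk1). Nothing in them is in capitals, since no part was singled out.
Mcm10 brightest: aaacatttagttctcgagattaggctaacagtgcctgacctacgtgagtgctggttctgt
Mcm10 other: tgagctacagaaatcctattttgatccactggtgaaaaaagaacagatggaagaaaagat
Pola1 brightest: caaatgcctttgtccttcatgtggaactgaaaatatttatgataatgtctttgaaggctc
Pola1 other: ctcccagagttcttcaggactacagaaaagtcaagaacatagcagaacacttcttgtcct
Fen1 brightest: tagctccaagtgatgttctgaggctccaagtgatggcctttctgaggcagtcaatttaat
Fen1 other: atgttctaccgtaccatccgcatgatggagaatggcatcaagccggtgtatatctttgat
Tk1 only probe: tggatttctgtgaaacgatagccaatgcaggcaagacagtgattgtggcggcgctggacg

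**Figure D5:**
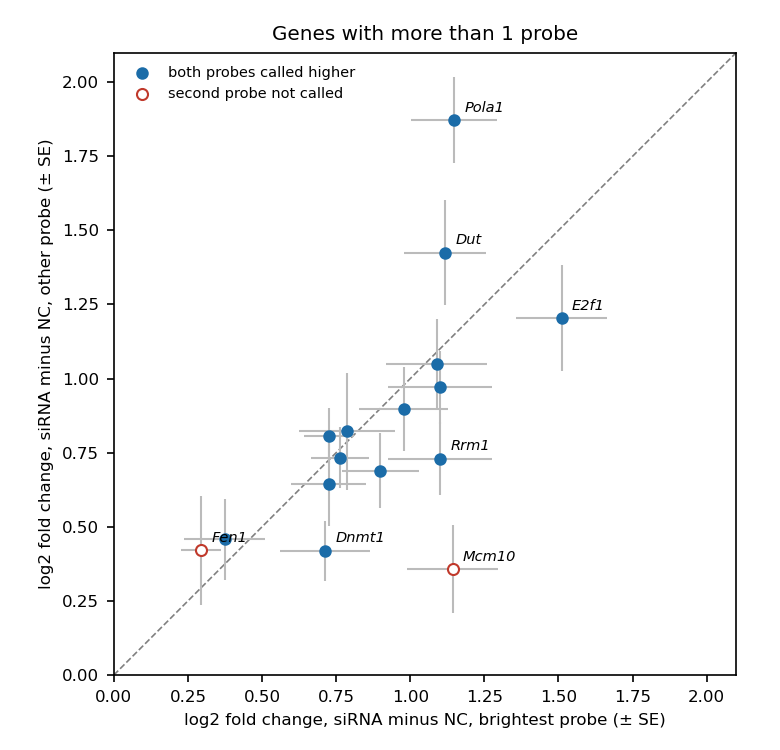
Log2 fold change (siRNA minus NC, ± SE) of the brightest probe against that of another probe of the same gene, for the 16 pairs of 15 genes, with the dashed line marking equal values. All points are positive on both axes, and the open points, Mcm10 and Fen1, are the pairs whose second probe was not called.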

How the data were processed

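Total RNA of 4 siRNA and 4 NC samples was labelled with Cy3 and hybridised 1 per array. The deposited scanner files were written by Feature Extraction, version 12.0.3.1 per the file headers and 12.0 per the submitters' processing notes. The deposited processed intensity has local background and spatial trend removed per the file headers, and arrays are not scaled to each other. The authors' deposited series table of log2 values holds 86 probes, none of them of a member, and was not used for any value here. How the authors normalized it is not given in the sources used.

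Control spots and outlier spots (129 to 174 per array) were left out. The log2 of the processed intensity was centred on its 75th percentile in each array and averaged over spots of a probe. Probes were kept if well above background in 3 or more of the 4 siRNA or 4 NC arrays, which left 24853 of 41012. A gene is represented by its brightest kept probe under its name in the files. The comparison used lmFit and eBayes of limma 3.58.1 (R 4.3.3), two-sided, with p adjusted by Benjamini-Hochberg over the 24853 probes, and a gene was called when this was under 0.05. Fits and adjustment were checked on simulated data. Promoters came from RefSeq (GRCr8) and probe positions from the array design (rn4).

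The members and gene lists were chosen with earlier results of these data known, so their counts are descriptions and carry no test of the list. Values on every array were given, in each role group, for the called members with the largest fold changes (up to 3 in groups over 5 members, otherwise up to 2), for members not called, and for members whose probes differ in call; in the other pathway lists up to 2 genes per direction with the smallest adjusted p were named, and counts of 5 or fewer, except for a few genes that are not reported here. Whether the shared replicate numbers 1 to 4 pair the samples is not known. Deviations from the group means of same-numbered arrays correlated at 0.0134, 0.0299, -0.0320 and 0.209, which cannot settle it. Alternatives covered background correction, scaling, the filter on dim probes, probe choice, gene naming, a variance trend, the replicate block and leaving out each array. Values of single genes outside the members without 1 array were added after the data were seen.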

Additional observations from a re-analysis of the deposited data

Results flagged for a closer look

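In 3 of the 84 groups of 4 arrays tested over the members, the highest or lowest array stood apart by a gap larger, as a share of the group's range, than Dixon's critical value. Chance flags about 1 in 20 groups. Pola1 on siRNA replicate 1 had a log2 level of -1.63, the lowest of the siRNA arrays, with the nearest at -1.13 and a gap of 0.912 of the range. Mcm4 on NC replicate 3 was at -1.34, the lowest of the NC arrays, with the nearest at -0.92 and a gap of 0.858 of the range. Pola2 on NC replicate 4 was at -2.57, the highest of the NC arrays, with the nearest at -3.27 and a gap of 0.850 of the range. In the groups they belong to, siRNA replicate 1 and NC replicate 3 were the lowest arrays and NC replicate 4 the highest array for most members, an order that these 3 values share.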

How the results depend on the processing

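Of the 42 measured members, 39 had a positive log2 fold change under every alternative that measured them, which was all 21 but for Mcm5 and Rpa1, with 20 each, and 23 kept their side of the threshold under all 21. The number called higher, 40, was 23 with normexp background correction, 38 to 40 when 1 array was left out, and 37 of 39 members to 42 of 42 under the others. Normexp without the 0 to 10 spots per array that were dimmer than their local background, left out of its fit as well, gave 40 again. The cause of the loss of 17 calls was not tested. Normexp also turned Pola2 to -0.0049 (adjusted p = 0.992, limma) and Uhrf1 to -0.0792 (adjusted p = 0.856), and spike-in scaling turned Cdc7 to 0.49 (adjusted p = 0.00945). The members' median log2 fold change of 0.82 was 1.12 when arrays were scaled to their median and 1.35 when scaled to spike-in probes, which moved the median of all probes by 0.30 and 0.53, and 0.74 to 0.91 when 1 array was left out. Of the other pathway genes, 53 higher and 8 lower, normexp called 24 higher and 1 lower, spike-in scaling 81 and 0, median scaling 2 lower, and a 75th percentile taken over bright probes alone 13 lower; leaving out 1 array gave 51 to 56 higher and 7 to 9 lower. The causes of these changes in the other pathway genes were not tested. With spike-in scaling 16280 of all 24853 probes were called higher and 2712 lower, in place of 7389 and 7938, and with normexp 1972 and 1677. Mcm4, Mcm7 and Fen1 lost their calls most often among the members, in 9, 7 and 3 alternatives.

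With the replicate number as a block, 40 members were called higher, as without it, and 55 other pathway genes were higher and 7 lower. Whether the numbers pair the samples is not known, and 1 siRNA array correlated best with the NC array of its own number. Cdc7, Pola2 and Uhrf1, the members whose sign changed, had mean log2 levels from -3.31 to -2.19 in either group, and slide and scan cannot be told apart from the groups.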

Other observations

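Among the lists outside replication, the leukocyte marker Cd68 fell by 2.39 (log2, adjusted p = 1.07e-06, limma) in siRNA cells and the collagen gene Col3a1 rose by 2.66 (adjusted p = 2.47e-07), both larger than the fold change of any replication gene. The other measured leukocyte markers, Cd14 and Ms4a1, were not called at 0.20 (adjusted p = 0.0586, limma) and -0.59 (0.455). Cyp2e1, a cytochrome of hepatocytes, rose by 4.94 (adjusted p = 9.58e-06). Of the 5 measured endothelial markers 3 were called higher, among them Kdr (1.65, adjusted p = 0.000188, limma) and Eng (0.90, adjusted p = 0.000830), and 2 lower, Vwf and Tek, both well above background on 4 of 4 NC arrays and 0 of 4 siRNA arrays. Among the common reference genes Gusb, a lysosomal enzyme, rose by 1.18 ± 0.07 (SE; adjusted p = 9.35e-06, limma), and Gapdh had a log2 fold change of -0.04 ± 0.05 (adjusted p = 0.504). These genes were singled out after their values were seen.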
